A study of Saccharomyces cerevisiae with 54 samples.

Results

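Ribosome biogenesis in yeast is carried out by a large set of nucleolar and nuclear factors that transcribe, modify, cleave and fold the ribosomal RNA and load the ribosomal proteins onto it. Small nucleolar ribonucleoproteins (snoRNPs) guide the modification of the RNA, the SSU processome assembles around the precursor of the small subunit, and a succession of assembly factors and GTPases matures the large subunit. Genes for these factors are highly transcribed in cells growing on glucose and are regulated together. The genes described here are 55 such factors out of 6002 nuclear protein-coding genes. They were listed by name for their role, with earlier results of these data known. They comprise 7 snoRNP protein genes (*NOP1*, *NOP56*, *NOP58*, *RRP9*, *CBF5*, *NHP2*, *GAR1*) and 18 genes of the SSU processome and early small-subunit assembly (*UTP4*, *UTP5*, *UTP6*, *UTP7*, *UTP8*, *UTP9*, *UTP10*, *UTP13*, *UTP15*, *UTP20*, *UTP21*, *UTP22*, *UTP30*, *RRP5*, *RRP7*, *RRP12*, *NOP14*, *NSR1*). A further 9 encode DEAD-box RNA helicases (*DBP2*, *DBP3*, *DBP7*, *DBP8*, *DBP9*, *DBP10*, *DRS1*, *MAK5*, *HAS1*). The remaining 21 act in large-subunit assembly (*NOP2*, *NOP4*, *NOP7*, *NOP12*, *NOP15*, *NOP16*, *NOP53*, *MAK16*, *ERB1*, *YTM1*, *BRX1*, *EBP2*, *RLP7*, *RLP24*, *TIF6*, *NUG1*, *NOG1*, *NOG2*, *SSF1*, *RRP14*, *RRP8*).

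ChIP-seq was made in *S. cerevisiae* grown in YPD. Acetylated H4 and acetylated H3 were precipitated from *hda1∆* cells, which lack the catalytic subunit of the histone deacetylase complex Hda1C, from *tup1∆* cells, which lack the corepressor Tup1, and from wild-type cells. The myc tag was precipitated from cells carrying Hda1(arb2∆)-18myc, in which the Arb2 domain of Hda1 is deleted, from cells carrying Hda1-18myc, and from untagged cells (Untag). H4 acetylation and anti-myc libraries came in one set whose titles name a spike-in of *S. pombe* chromatin and in another whose titles do not, and H3 acetylation only in the second, with 2 libraries per strain, antibody and set. The study's methods state a spike-in for every ChIP-seq but H3 acetylation, so "with" and "without spike-in" below follow the titles alone. The deposited files are peak lists without read counts, so the depth is unknown and the height of acetylation was not compared. The measure throughout is coverage, the percent of a coding region (start to stop codon, introns included) or of the 400 bp upstream of it that lies under peaks. Differences are in percentage points of coverage, tested with limma over all genes that varied, at an adjusted p of 0.05. Counts of members at an unadjusted p under 0.05 are given without the share over all genes. They show only what lay below the adjusted threshold and are no result about the members. The study describes pairs of its ChIP-seq libraries as independent experiments. The labels do not say whether the cultures were separate, and p-values measure the spread between these libraries.

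In H4 acetylation, 2191 to 3197 peaks were listed per library, in H3 acetylation 2501 to 2841. Peaks of the deleted genes matched the labels: no H4 acetylation peak touched *HDA1* in any of the 4 *hda1∆* libraries, against 14.7 to 19.1% of its coding region in wild-type, and none touched *TUP1* in the 4 *tup1∆* libraries, against 2.66 to 7.28% in wild-type. Among anti-myc libraries, 2 stood apart. Untag replicate 1 of the spike-in set held 235 peaks where its replicate held 10, and Hda1(arb2∆)-18myc replicate 2 of the spike-in set held 59 where its replicate held 628. Counts of coding-region calls are given with and without both, while upstream calls are given only with them.

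H4 acetylation at most factor genes lay in a narrow zone around the start codon. In members of at least 1000 bp there was little between 500 and 1000 bp in any strain. Of the 55 coding regions, 49 were touched by an H4 acetylation peak in at least 1 of the 12 libraries and 33 in all 12. Coding regions of *UTP20*, *DBP2*, *DBP7*, *DBP9*, *NOP4* and *YTM1* were touched in none. *NHP2*, whose product is a core protein of H/ACA snoRNPs, and *RLP24*, an early large-subunit factor related to a ribosomal protein, were covered completely in all 12. The 400 bp upstream were touched in 50 members and covered completely in all 12 libraries in 21. Upstream regions untouched in every library were those of *UTP20*, *DBP7*, *DBP9*, *HAS1* and *NOP4*.

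Along the coding region, mean coverage of the first 250 bp was 58.4 to 65.5% in *hda1∆*, 64.9 to 75.5% in *tup1∆* and 67.1 to 80.9% in wild-type over the 4 libraries of each strain. Between 250 and 500 bp it was 38.4 to 44.8% in *hda1∆*, 41.3 to 57.0% in *tup1∆* and 39.3 to 53.0% in wild-type. Between 500 and 1000 bp, over the 43 members long enough, it was 1.16 to 2.68% in *hda1∆*, 0.177 to 1.92% in *tup1∆* and 1.28 to 2.12% in wild-type, while all genes of that length stood at 18.5 to 22.96% in *hda1∆*, at 19.3 to 23.1% in *tup1∆* and at 21.3 to 25.5% in wild-type. From 1000 to 1500 bp, none of the 32 members long enough was covered in any library. In 31 members the start codon lay under a peak in all 12 libraries, and there the peak ended at a median of 453 to 469 bp into the gene in *hda1∆*, 431 to 481 bp in *tup1∆* and 420 to 460 bp in wild-type. Over the 2608 genes of the genome with the same property, the medians were 526.5 to 564 bp in *hda1∆*, 530 to 564 bp in *tup1∆* and 552 to 568.5 bp in wild-type.

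**Figure D1:**
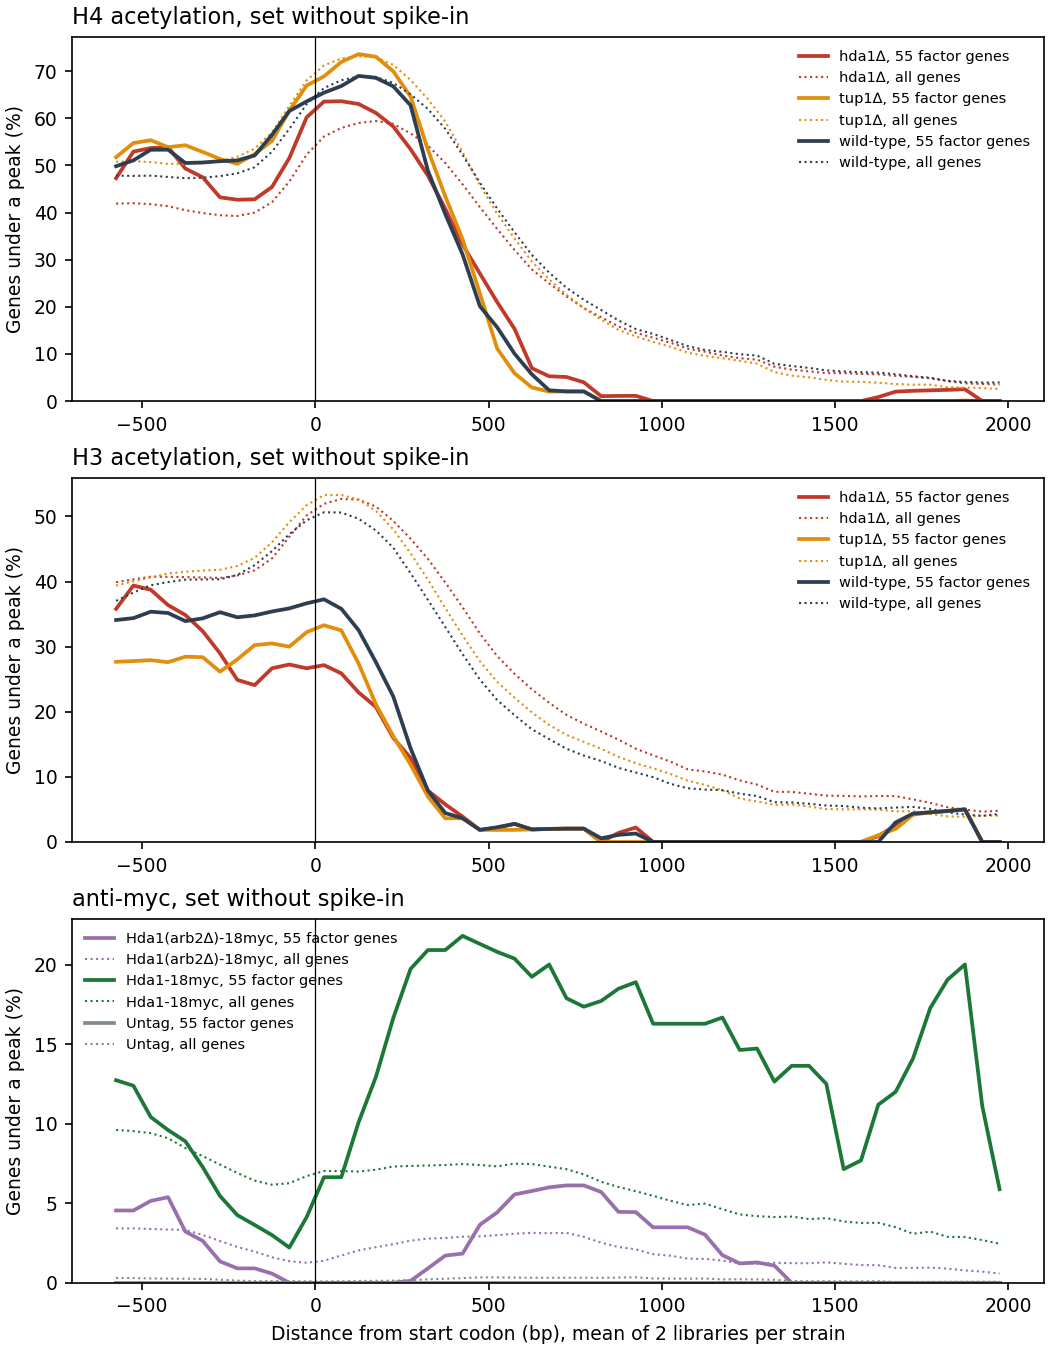
Percent of genes under a peak (y axis) against distance from the start codon in bp (x axis), for H4 acetylation, H3 acetylation and anti-myc in the set without spike-in. Solid lines are the 55 factor genes, dotted lines all genes, each the mean of 2 libraries per strain. H4 and H3 acetylation of the factor genes fall off within the first 500 to 1000 bp, with a small return past 1500 bp that rests on the few long members, while Hda1-18myc at the factor genes lies within the coding region and is lowest just upstream of the start codon.

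Coverage therefore followed gene length. Members ran from 471 bp (*NHP2*) to 7482 bp (*UTP20*), with a median of 1563 bp against 1200.0 bp for all genes. Across the 55 members, Spearman's rho between length and H4 acetylation coverage was −0.75 to −0.45 over the 12 libraries, a description over genes that share each library. Mean coding coverage of the members was 26.2 ± 0.0795% in *hda1∆*, 27.7 ± 2.57% in *tup1∆* and 29.4 ± 0.175% in wild-type with spike-in (SD, n = 2 each). Without spike-in it was 24.0 ± 1.23% in *hda1∆*, 24.9 ± 0.477% in *tup1∆* and 24.1 ± 0.0741% in wild-type. All genes averaged 38.5 ± 0.518% in *hda1∆*, 43.7 ± 2.103% in *tup1∆* and 42.3 ± 0.813% in wild-type with spike-in. Without spike-in all genes averaged 38.4 ± 0.0791% in *hda1∆*, 43.3 ± 0.289% in *tup1∆* and 42.0 ± 0.169% in wild-type. In *hda1∆*, peaks also covered less of the genome as a whole (3163868 to 3515952 bp, against 3644778 to 3974002 bp in wild-type). The part of this in single differences was tested only by taking peaks to an equal covered length in every library.

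In *hda1∆*, H4 acetylation coverage was higher at 3 snoRNP protein genes, *NOP1*, *NOP56* and *CBF5*, and lower at *MAK16*, *UTP30* and *DBP8*. Of 47 members that could be tested, 3 were higher in *hda1∆* than in wild-type and 3 lower, where 5.51% of the 4537 genes tested were higher and 16.9% lower. The share of members higher was thus near that of all genes, and the share lower was below it. The fitted difference was positive in 15 members and negative in 31, with a median of −1.57 points against −2.93 points over all genes tested. By role, 3 of 6 snoRNP genes were higher and none lower (median 4.96 points). SSU processome genes had 0 higher and 1 lower of 17, helicase genes 0 and 1 of 6, and large-subunit genes 0 and 1 of 18.

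*NOP1* encodes fibrillarin, the methyltransferase of box C/D snoRNPs. H4 acetylation covered 80.6 and 46.1% of it in *hda1∆* with spike-in and 76.8 and 80.2% without, against 46.8 and 44.8% in wild-type with spike-in and 42.0 and 45.3% without. In 3 of the 4 *hda1∆* libraries the peak ran far into the gene, ending 756 to 793 bp past the start codon, and in the remaining one it ended at 454 bp, within the wild-type range of 413 to 460 bp. The difference was 26.2 points (SE 6.95, limma adjusted p = 0.0256). In the first *hda1∆* library without spike-in the peak was chrIV:426659-428119, and in the first wild-type one chrIV:426526-427776. The call was lost in the spike-in set alone (adjusted p = 0.481) and without any of 6 of the 12 libraries (adjusted p 0.0543 to 0.0682), namely both replicates without spike-in of both strains, *hda1∆* spike-in replicate 1 and wild-type spike-in replicate 2.

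*NOP56*, which encodes a core protein of the same snoRNPs, was covered to 36.8, 32.5, 40.1 and 37.8% in *hda1∆* (spike-in replicates 1 and 2, then the same without spike-in) and to 27.1, 31.4, 28.7 and 26.3% in wild-type. Every *hda1∆* library lay above every wild-type one, by 8.45 points in the fit (SE 2.13, adjusted p = 0.0213). This call too was lost in the spike-in set alone (adjusted p = 0.427), and without any of 5 libraries (0.0505 to 0.0625), both replicates without spike-in of both strains and wild-type spike-in replicate 1. *CBF5*, the pseudouridine synthase of H/ACA snoRNPs, was covered to 36.8, 41.9, 37.3 and 39.9% in *hda1∆* and to 30.9, 28.6, 30.8 and 33.1% in wild-type, again without overlap. The difference was 8.09 points (SE 1.68, adjusted p = 0.00877), and it was called without any single library, though not in either set alone (adjusted p = 0.103 with spike-in and 0.0646 without). The other box C/D protein gene, *NOP58*, was covered to 29.5 to 34.6% in *hda1∆* and 28.0 to 32.3% in wild-type, and the ranges overlapped.

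Among the members lower in *hda1∆*, *MAK16*, an early large-subunit factor, lost its peak. It was touched by no peak in the 4 *hda1∆* libraries, against 41.8 and 48.3% in wild-type with spike-in and 33.9 and 32.3% without (−39.1 points, SE 8.55, adjusted p = 0.011). In wild-type this was a short, low peak, for example chrI:100761-101283 in the first library with spike-in, which ranked 1672 of 2454 by fold. When every library was held to the same covered length, the difference was 0 (adjusted p = 1). In *tup1∆* it was covered to 47.1, 0, 33.4 and 27.7%.

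*UTP30*, a component of early small-subunit precursors, was covered to 75.03, 66.3, 66.6 and 75.5% in *hda1∆* and to 87.5, 100, 87.3 and 84.5% in wild-type, without overlap (−19.0 points, SE 3.89, adjusted p = 0.00825). A peak covered its start codon only in wild-type spike-in replicate 2 and *tup1∆* spike-in replicate 1. In the other libraries its coverage lay further into the gene, and whether the peak was that of the next gene was not tested. The H3 acetylation peaks over this 825 bp gene had summits 1294 to 1427 bp from the start codon, past its end. The exception was *hda1∆* replicate 1, with its summit at 663 bp. *DBP8*, a helicase of small-subunit processing, was covered to 29.0, 41.2, 38.7 and 40.4% in *hda1∆* and to 47.5, 51.0, 51.2 and 49.8% in wild-type, also without overlap (−12.6 points, SE 2.83, adjusted p = 0.0124). In neither did leaving out a library end the call, nor did it for *MAK16*. In the spike-in set alone, neither *DBP8* (adjusted p = 0.182) nor *MAK16* (0.215) was called. For *UTP30* the call ended within each set alone (adjusted p = 0.111 with spike-in and 0.0942 without) and on the arcsine scale (0.0579). It also ended with gene positions moved 200 bp to higher coordinates, where the difference was −4.91 points (adjusted p = 0.14).

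The largest positive difference was not called. *RLP7*, a large-subunit factor related to a ribosomal protein, was covered completely in 3 *hda1∆* libraries and to 60.7% in the fourth, against 67.0, 54.5, 49.3 and 57.5% in wild-type (33.1 points, SE 10.7, adjusted p = 0.0544). In those 3 libraries *RLP7* lay under a peak of 3053 to 3162 bp whose summit was 1661 to 1965 bp from the start codon of this 969 bp gene, past its end, so that its coverage came from a peak merged with that of the next gene. *RRP8*, which encodes a methyltransferase of the large ribosomal RNA, was covered to 36.3, 33.9, 21.2 and 0% in *hda1∆* and to 43.6, 40.1, 34.4 and 37.5% in wild-type (−16.1 points, adjusted p = 0.0711).

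Several members showed a peak in the spike-in set in wild-type and not in *hda1∆*. Fewer genes were touched in *hda1∆* over the genome too. Of all 6002 genes, 4317 and 4390 were touched in the spike-in wild-type libraries, and 3800 and 3871 in the spike-in *hda1∆* libraries. The share of all genes touched in both of the former and neither of the latter was not counted. The members named next are therefore a description and no result about the factor genes. *RRP9* (a U3 snoRNP protein), *NOP16*, *NOP53*, *MAK16* and *SSF1* were touched in both wild-type libraries of that set and in neither *hda1∆* library. Of these, *NOP16* and *SSF1* were also touched in 1 *tup1∆* library, with spike-in, to 54.2 and 9.55%. In those wild-type libraries *RRP9* was covered to 16.7 and 13.8%, *NOP53* to 21.4 and 25.7% and *SSF1* to 16.7 and 20.9%, and in every other *hda1∆* or wild-type library these genes were untouched. *SSF1* has a near-identical paralog, *SSF2*, and reads between them may be shared, since the handling of multiply aligned reads was not given in the sources used here. *SSF2* was covered to 0, 0, 17.9 and 15.9% in *hda1∆*, 22.9, 25.3, 26.3 and 24.8% in *tup1∆* and 0, 0, 0 and 22.9% in wild-type.

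**Figure D2:**
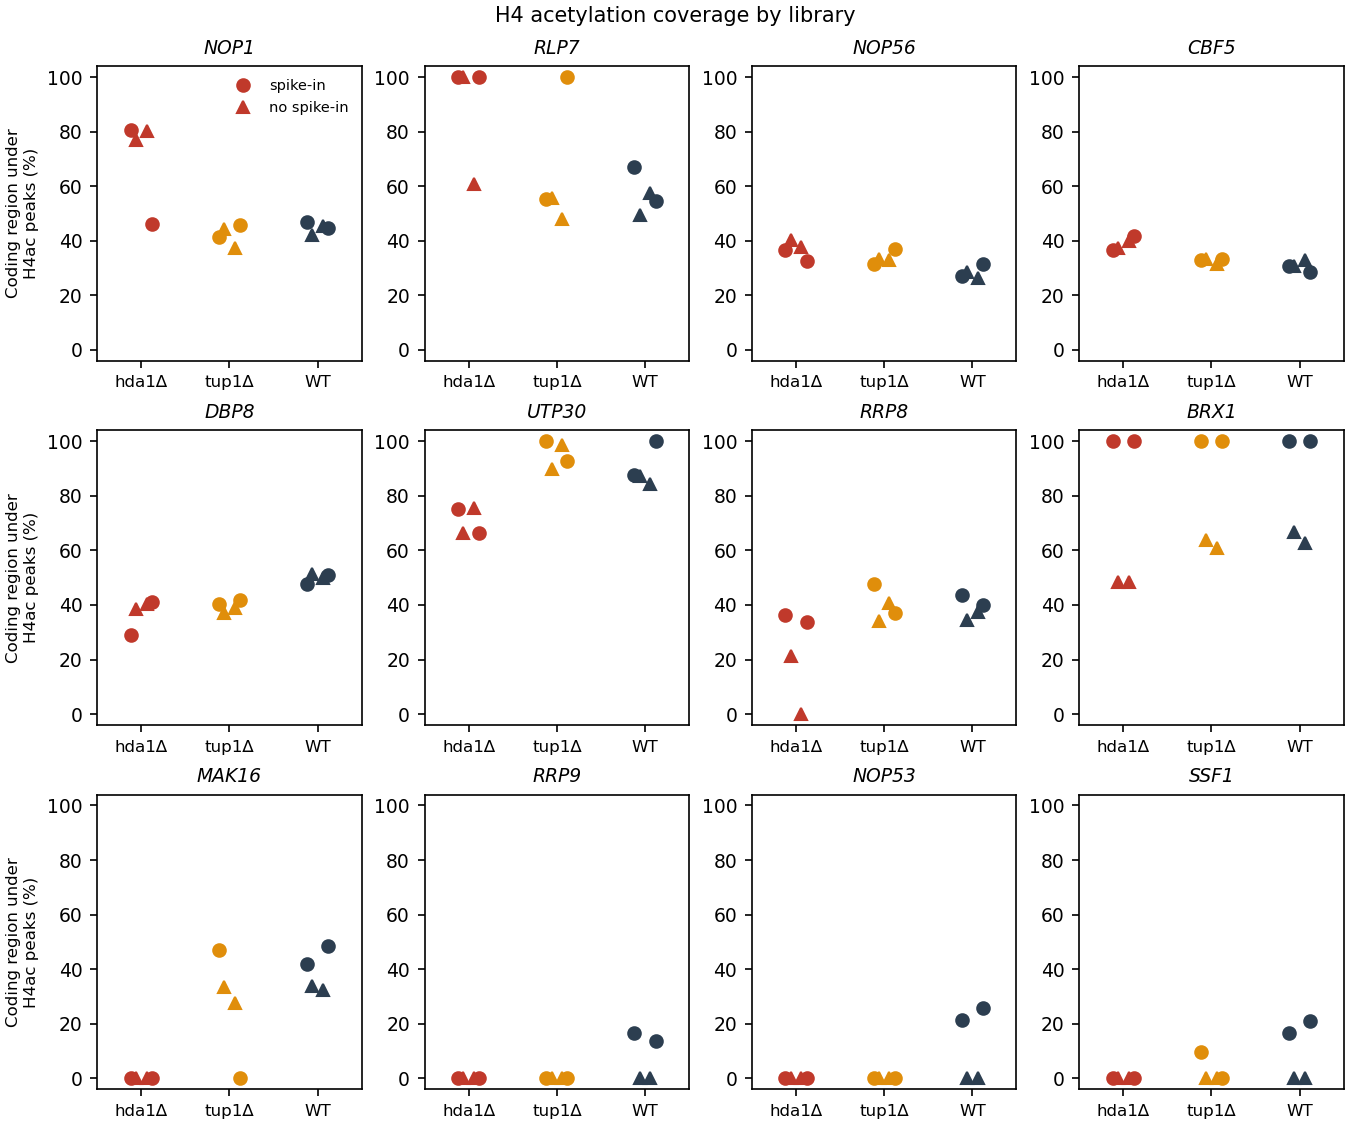
Percent of the coding region under H4 acetylation peaks (y axis) in each library of *hda1∆*, *tup1∆* and wild-type (x axis), for 12 members, chosen after their values were seen. Circles are libraries with spike-in and triangles those without. *NOP56*, *CBF5*, *DBP8* and *UTP30* separate *hda1∆* from wild-type in every library, *NOP1* in 3 of 4, and *MAK16* has no peak in *hda1∆*.

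In *tup1∆*, *DBP8* was the member whose H4 acetylation coverage differed from wild-type. No member was higher and 1 was lower of 47 tested, where 9.1% of all genes tested were higher and 5.77% lower. At an unadjusted p under 0.05, 1 member was higher and 3 lower, and both alternative fits on the arcsine scale and without the trend also called 0 higher. The median difference was −0.14 points against −0.09 over all genes. *DBP8* was covered to 40.3, 41.7, 37.0 and 38.7% in *tup1∆* against 47.5, 51.0, 51.2 and 49.8% in wild-type (−10.4 points, SE 2.83, adjusted p = 0.0367). Its libraries did not overlap, but the call was lost without any of 9 of the 12 libraries (adjusted p 0.0515 to 0.103). The largest differences that were not called were 9.64 points in *NSR1*, 7.64 in *RLP7* and 5.42 in *UTP30* on the positive side, and −12 in *MAK16* and −11.8 in *NOP53* on the negative side.

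Set against *tup1∆* directly, *hda1∆* had 2 members higher and 5 lower of 47, where 7.54% of all genes tested were higher and 22.7% lower. *NOP1* was higher by 28.6 points (SE 6.95, adjusted p = 0.0136), since in *tup1∆* it was covered to only 41.5, 45.9, 44.5 and 37.4%. *CBF5* was higher by 6.08 points (adjusted p = 0.0235), with 33.1, 33.3, 33.3 and 31.7% in *tup1∆*. That call was lost without any of 3 libraries, *hda1∆* replicate 2 and both *tup1∆* replicates without spike-in (adjusted p 0.0521 to 0.0663), and in each set alone (0.204 with spike-in and 0.0691 without), and that of *NOP1* in the spike-in set alone (0.404). *UTP30* was lower by 24.4 points on the same comparison (adjusted p = 0.00152), with 100, 92.6, 89.8 and 98.6% in *tup1∆*. *MAK16* (−27.1 points, adjusted p = 0.0398), *RRP8* (−17.0, 0.0472), *RRP14* (−7.03, 0.0441) and *UTP9* (−4.12, 0.0465) were called by a small margin. Each of these 4 lost its call without any of 8 to 10 of the 12 libraries, and *RRP8* turned to 1.87 points when libraries were held to equal covered length (adjusted p = 0.949). The calls of *RRP8*, *RRP14* and *UTP9* were also lost with a replicate block (adjusted p = 0.0532, 0.0598 and 0.0563). This comparison and the preceding pair share their libraries.

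H3 acetylation at the factor genes was sparse, and in *hda1∆* the coding regions of *GAR1*, *CBF5*, *UTP9* and *UTP15* were no longer touched by a peak. It touched 29 of the 55 coding regions in at least 1 of 6 libraries and 13 in all 6. These 13 were *NOP58*, *NHP2*, *UTP4*, *UTP5*, *RRP7*, *UTP30*, *DBP3*, *DBP8*, *NOP16*, *RLP7*, *RLP24*, *NOG1* and *RRP14*. Mean coding coverage of the members was 8.56 ± 0.662% in *hda1∆*, 8.91 ± 0.861% in *tup1∆* and 10.2 ± 0.549% in wild-type (SD, n = 2 each). Over all genes it was 35.4 ± 0.357% in *hda1∆*, 33.3 ± 1.85% in *tup1∆* and 30.6 ± 0.151% in wild-type. Between 500 and 1000 bp into the coding region, none of the 43 members of at least 1000 bp was covered in any library.

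In *hda1∆* against wild-type, 0 of 28 tested members were higher in H3 acetylation and 4 lower, where 11.2% of the 3940 genes tested were higher and 2.69% lower. No member was higher at an unadjusted p under 0.05 either, nor on the arcsine scale or without the trend. The median difference was −1.72 points in the members and 1.06 over all genes tested. With 6 libraries the fit has few degrees of freedom and called too many genes on simulated data, so the values per library carry the result. *GAR1*, a core protein of H/ACA snoRNPs, had no peak in either *hda1∆* library, against 51.8 and 40.3% in wild-type (−46.0 points, SE 7.495, adjusted p = 0.0297), and 43.7 and 26.4% in *tup1∆*. *CBF5*, of the same particle, had none in *hda1∆* against 26.2 and 24.0% in wild-type (−25.1 points, SE 1.37, adjusted p = 0.00156), and 19.4 and 19.6% in *tup1∆*. At equal covered length this difference was not called (adjusted p = 0.106). In the same mutant *CBF5* was higher in H4 acetylation coverage, as given above.

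*UTP9*, a subunit of the SSU processome, had no H3 acetylation peak in *hda1∆*, against 11 and 12.9% in wild-type (−11.95 points, SE 1.00, adjusted p = 0.00522). *UTP15*, of the same subcomplex, had none on its coding region in *hda1∆*, against 7.33 and 9.73% in wild-type (−8.53 points, SE 1.32, adjusted p = 0.0256). Its upstream 400 bp remained covered to 92.0 and 87.3% in *hda1∆*, against 100 and 100% in wild-type, so it was the edge of the peak that was absent from the coding region. The calls of *GAR1* and *UTP15* were lost without either *hda1∆* library, that of *GAR1* also without either wild-type library and that of *UTP15* without wild-type replicate 2 (adjusted p 0.0639 to 0.14). *UTP15* also lost its call with a replicate block (adjusted p = 0.0829). By fold, the wild-type peaks of *CBF5*, *GAR1* and *UTP9* ranked 1197 to 2116 among the 2501 and 2571 peaks of their libraries, and those of *UTP15*, with summits upstream of the gene, 324 and 549. The *CBF5* peak had its summit at −453 bp from the start codon in wild-type replicate 1 and at 168 bp in replicate 2. The neighbour *IDP2* lies 304 bp upstream, and both peaks reached into it, so the loss at *CBF5* cannot be told apart from one at *IDP2*.

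In *tup1∆* against wild-type, 1 of 28 members was higher in H3 acetylation and 2 lower, where 11.6% of all genes tested were higher and 5.03% lower. *TIF6*, the anti-association factor of the large subunit, gained a peak: 19.4 and 15.7% in *tup1∆*, 0 in both wild-type libraries and 0 in both *hda1∆* libraries (17.6 points over wild-type, SE 1.52, adjusted p = 0.00452). The peak, chrXVI:592927-593232 in the first library, spans the start codon and also covered 40.8 and 42.3% of the 400 bp upstream, where wild-type had none (41.5 points, adjusted p = 0.00041). Held to equal covered length, neither difference was called (adjusted p = 0.41 and 0.419). *UTP9* had no peak in *tup1∆* either (−11.95 points, adjusted p = 0.00417), and *UTP15* had 2.01 and 0% (−7.52 points, adjusted p = 0.0312, and 0.0913 with a replicate block). Of these 3 coding-region calls, only that of *UTP15* was lost when single libraries were left out, in 5 of 6 cases. Set against *tup1∆*, *hda1∆* had 0 members higher and 2 lower in H3 acetylation, *CBF5* (−19.5 points, adjusted p = 0.0038) and *TIF6* (−17.6 points, adjusted p = 0.00674), where 7.21% of all genes were higher and 4.8% lower. At an unadjusted p under 0.05, 3 members were higher.

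Upstream of the start codon, H4 acetylation coverage was lower in *hda1∆* as it was over the genome. H4 acetylation covered 61.3 ± 1.10% of the members' upstream 400 bp in *hda1∆*, 64.3 ± 7.46% in *tup1∆* and 73.9 ± 1.51% in wild-type with spike-in (SD, n = 2 each), and 47.9 ± 1.11% in *hda1∆*, 55.6 ± 0.736% in *tup1∆* and 54.6 ± 0.816% in wild-type without. In *hda1∆* against wild-type, 0 of 29 tested members were higher and 1 lower, where 1.27% of 3376 genes tested were higher and 15.2% lower. The unadjusted p was under 0.05 in 0 members that were higher and in 5 that were lower, counts not set against all genes. The median difference was −15.9 points in the members and −10.2 over all genes. *UTP8*, of the SSU processome, was the member called: its upstream region was covered to 100, 0, 6.00 and 12.5% in *hda1∆* and completely in all 4 wild-type libraries (−70.4 points, SE 18.3, adjusted p = 0.0297). This call was lost without any of 7 libraries (adjusted p 0.0589 to 0.0752). In *tup1∆* against wild-type, 0 members were higher and 1 lower, where 10.6% of all genes were higher and 2.78% lower. *UTP10*, of the same subcomplex, was covered upstream to 89.8, 67.8, 19.5 and 19.3% in *tup1∆* and completely in every *hda1∆* and wild-type library (−50.9 points, SE 11.99, adjusted p = 0.0207). Leaving out any of 4 libraries ended that call (0.0546 to 0.0654). Set against *tup1∆*, *hda1∆* had *UTP10* higher and *GAR1* and *UTP8* lower, where 2.73% of all genes were higher and 34% lower.

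Upstream H3 acetylation had 0 members higher and 2 lower of 25 tested in *hda1∆* against wild-type, where 7.29% of 3045 genes were higher and 6.17% lower. These were *CBF5*, covered to 27.8 and 33.0% in *hda1∆* against 100 and 100% in wild-type (−69.6 points, adjusted p = 0.00738), and *UTP9*, covered to 0 and 0% against 88.3 and 53.5% (−70.9 points, adjusted p = 0.0443). In *tup1∆* against wild-type, besides *TIF6*, the same pair was lower, where 11.5% of all genes were higher and 6.47% lower. *CBF5* was covered to 0 and 15.3% in *tup1∆* (−92.4 points, adjusted p = 0.00237), and *UTP9* to 0 and 0% (−70.9 points, adjusted p = 0.0358). With a replicate block, *UTP9* was not called in either mutant (adjusted p = 0.0901 in *hda1∆* and 0.0705 in *tup1∆*), nor without any of the 4 mutant libraries (0.116 to 0.17). Set against *tup1∆*, *hda1∆* had 0 members higher and only *TIF6* lower (−41.5 points, adjusted p = 0.000699), where 3.68% of all genes were higher and 6.34% lower, and 2 members were higher at an unadjusted p under 0.05. Of the 55 members, 25 have a divergent upstream neighbour and 32 a neighbour within 400 bp, so upstream coverage cannot be told apart from that of the neighbour.

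Hda1 itself lay on the coding regions of a subset of the factor genes, among them most of the snoRNP protein genes. At least 50% of the coding region was covered in all 4 Hda1-18myc libraries in 10 of the 55 members (18.2%), where 6.63% of all genes met the same criterion. These were *NOP1*, *NOP56*, *NOP58*, *CBF5* and *NHP2* of the 7 snoRNP genes, *NSR1* alone of 18 SSU genes, *DBP2* alone of 9 helicases, and *TIF6*, *NOG1* and *NOG2* of 21 large-subunit genes. Among 82 other ribosome biogenesis genes it was 3, among 8 RNA polymerase I subunit genes 0, and among 137 ribosomal protein genes 136. In both libraries of the spike-in set 13 members met it (*GAR1*, *RLP7* and *RLP24* in addition), where 8.53% of all genes did, and in the set without spike-in 10, where 7.15% did. In Untag 0 members met it in either set, where 0.0333% of all genes did with spike-in and 0.25% without. With spike-in no member could meet it, since Untag replicate 2 of that set touched none. Replicate 1 of that set alone covered *NOP56* to 65.8%. No anti-myc peak touched the coding region of 32 members in any of 12 libraries. The other 23 members (41.8%) were touched in some library of any strain, where 21.7% of all genes were.

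In the fit against Untag, 23 members could be tested, all of them through a peak in some library, and 15 were higher and 0 lower, where 63.7% of the 1300 genes tested were higher and 0% lower. The share of tested members called is near that background. No member was lower at an unadjusted p under 0.05, nor on the arcsine scale or without the trend. In the spike-in set alone 7 members were called, and without the 2 libraries that stood apart, 15.

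*NOP1* was covered completely in all 4 Hda1-18myc libraries and untouched in all 4 Untag libraries (100 points, SE 16.8, adjusted p = 0.000853). *NSR1*, a nucleolin-like protein of early small-subunit assembly, was also covered completely in all 4, against 35.7% in Untag spike-in replicate 1 and 0 in the other Untag libraries (91.1 points, SE 17.6, adjusted p = 0.0018). *NHP2* was covered to 77.5, 86.6, 75.4 and 74.7% with Hda1-18myc and untouched in Untag (78.6 points, SE 2.64, adjusted p = 5.73e-09). These were peaks of about the length of the gene, such as chrIV:427244-428689 over *NOP1*, chrVII:806217-807714 over *NSR1* and chrIV:87618-88071 over *NHP2* in the first Hda1-18myc library with spike-in. *NHP2* was untouched in every Untag and Hda1(arb2∆)-18myc library, so it entered the fit only through Hda1-18myc. Its small SE and p rest on those untouched libraries, and the test adds no support to the values per library.

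The GTPase genes *NOG1* and *NOG2*, whose products act on large-subunit precursors, were covered to 93.2, 51.6, 89.7 and 95.1% and to 98.5, 88.9, 95.5 and 91.0% with Hda1-18myc. *NOG1* was untouched in Untag (82.4 points, adjusted p = 0.000211), and *NOG2* reached 47.7% in Untag spike-in replicate 1 (81.6 points, adjusted p = 0.001). *TIF6* was covered to 91.7, 95.3, 94.6 and 69.2% and untouched in Untag (87.7 points, adjusted p = 0.000202). *NOP58* was covered to 92.0, 89.5, 91.2 and 91.5%, with 25.1% in that Untag library (84.8 points, adjusted p = 0.000721).

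*DBP2*, a helicase with roles in RNA folding, was covered to 73.6, 64.4, 81.8 and 78.9%, with 16.8% in the same Untag library (70.5 points, adjusted p = 0.000121). *CBF5* and *NOP56* were covered to 46.4 and 65.8% in that library and untouched in the other Untag libraries. With Hda1-18myc they were covered to 91.0, 88.0, 74.9 and 86.7% and to 90.0, 83.8, 82.6 and 85.0% (73.6 and 68.9 points, adjusted p = 0.00487 and 0.00598). The other 5 members called were *GAR1* (63.6 points), *RLP7* (54.8), *RLP24* (53.5), *UTP5* (13.1) and *YTM1* (5.41), all untouched in Untag. Like *NHP2*, they entered the fit only through the Hda1-18myc libraries. In 13 of the 15 members called, all but *UTP5* and *YTM1*, the covering peaks had folds of 1.27 to 2.23 over control and stood at 47.9 to 98.4% of their library's peaks when ranked from the highest fold. Summits of the *GAR1* peak lay 524 to 706 bp from the start codon of this 618 bp gene. They lay past its end in spike-in replicate 1 and in replicate 2 without spike-in. Those of *UTP5* lay at 1746 to 1839 bp, near the end of this 1932 bp gene.

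Untag spike-in replicate 1 touched 9 members, and *UTP9* (49.0%), *UTP10* (20.6%) and *UTP20* (5.95%) were covered more in it than in any Hda1-18myc library. Neither of the first pair was covered in more than 1 Hda1-18myc library. No peak of the 2 Untag libraries without spike-in touched a member.

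**Figure D3:**
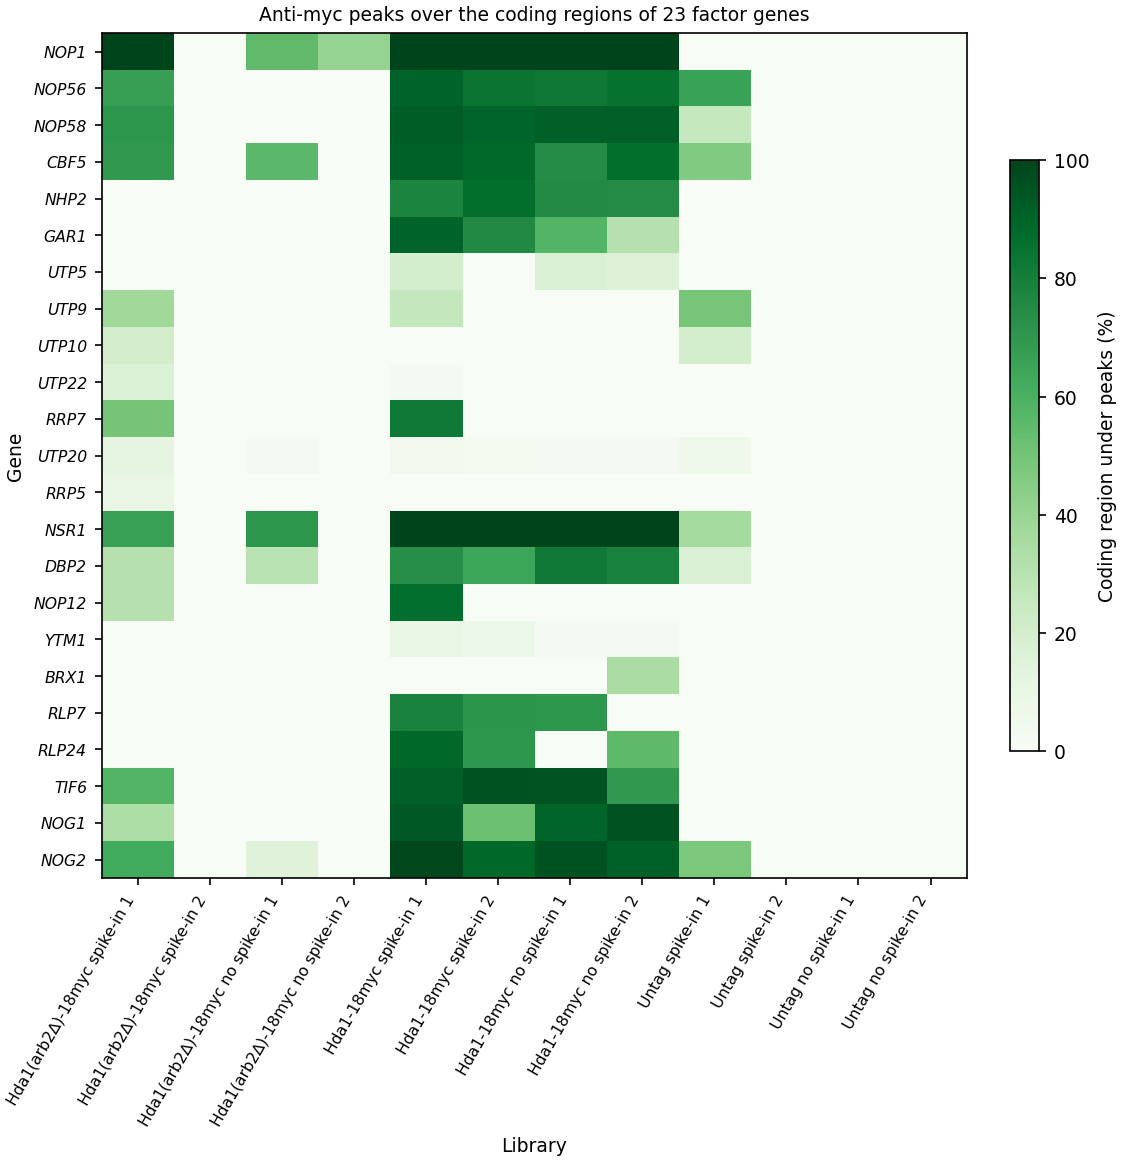
Percent of the coding region under anti-myc peaks (color) for the 23 members touched in any library (rows) in each of the 12 libraries (columns). Hda1-18myc libraries cover a block of 13 members broadly, Hda1(arb2∆)-18myc libraries cover fewer of them and less, and among Untag libraries only spike-in replicate 1 touches a member.

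Without the Arb2 domain, coverage by Hda1 was lower on these genes, with peaks remaining in 3 of 4 libraries on *NOP1* and in 2 on *NSR1*, *CBF5*, *NOG2* and *DBP2*. In Hda1(arb2∆)-18myc against Hda1-18myc, 0 members were higher and 15 lower of 23, where 0% of all genes tested were higher and 43.4% lower, and these were the 15 members called above. Both comparisons share the 4 Hda1-18myc libraries, through which most members entered the fit, so that the same members are called in both is no separate result. At an unadjusted p under 0.05, 0 members were higher, and 0 on the arcsine scale or without the trend. Without the 2 libraries that stood apart, 10 members were lower, and *CBF5* (adjusted p = 0.0593), *NOP1* (0.0572), *RLP7* (0.0541), *RLP24* (0.0566) and *UTP5* (0.053) were not called. In the spike-in set alone 5 were lower. No member reached 50% in both Hda1(arb2∆)-18myc libraries of either set, where 0.467% of all genes did with spike-in and 2.33% without. With spike-in no member could, since replicate 2 of that set touched none, while replicate 1 touched 16.

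*NHP2* was untouched in all 4 Hda1(arb2∆)-18myc libraries (−78.6 points, SE 2.64, adjusted p = 5.73e-09), as were *GAR1*, *RLP7*, *RLP24*, *UTP5* and *YTM1*. All of these entered the fit only through the Hda1-18myc libraries, so their calls add no support to the values per library. *NOP58*, *NOP56*, *TIF6* and *NOG1* were covered only in spike-in replicate 1, to 70.4, 67.1, 57.6 and 34.1% (differences of −73.4, −68.6, −73.3 and −73.9 points). *NOG2* was covered to 62.2, 0, 14.6 and 0% (−74.3 points), *NSR1* to 66.6, 0, 70.7 and 0% (−65.7) and *DBP2* to 30.7, 0, 29.3 and 0% (−59.7). *NOP1* kept the most, 100, 0, 54.4 and 40.9% (−51.2 points, SE 16.8, adjusted p = 0.034), and *CBF5* had 69.2, 0, 56.0 and 0% (−53.9 points, SE 17.1, adjusted p = 0.0293). Leaving out any of 7 libraries ended the call of *NOP1* and any of 5 that of *CBF5* (adjusted p 0.0503 to 0.0779). The zeros of replicate 2 in the spike-in set fall in a library with 59 peaks in all. Against Untag, no member was higher or lower in Hda1(arb2∆)-18myc, where 0.308% of all genes tested were higher and 0% lower. At an unadjusted p under 0.05, 1 member was higher and 0 lower.

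Upstream of the start codon, 9 members had an anti-myc peak and 8 were called in Hda1-18myc against Untag, where 76.3% of the 1020 genes tested were higher. In 6 of the 8, each peak there covered another gene. It lay over a tRNA gene upstream of *UTP22* and of *UTP20*, over the snoRNA gene *SNR8* upstream of *YTM1*, over the ribosomal protein genes *RPS15* and *RPS18A* upstream of *NOP12* and *UTP6*, and over *TIF1* upstream of *UTP30*. The small coverage of *YTM1* itself, 9.18, 7.38, 2.46 and 2.603%, was the edge of the *SNR8* peak. In Hda1(arb2∆)-18myc against Hda1-18myc all 8 were lower, where 70.2% of all genes tested were lower, and against Untag 0 were higher, where 0.098% were. Upstream of *NOP1* and *NSR1*, and of *DBP2*, which was not called, the peak was the end of the one on the member's own coding region.

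The H4 acetylation differences of the members with and without Hda1-18myc can be set side by side. Among the 15 members called for Hda1-18myc, the H4 acetylation difference of *hda1∆* minus wild-type was positive in 10, negative in 1 (*TIF6*, −4.71 points) and constant in 4, with a median of 1.82 points. All 3 members called higher, *NOP1*, *NOP56* and *CBF5*, were among them. Among the other 40 members it was positive in 5, negative in 30, zero in 1 and constant in 4, with a median of −2.07 points and all 3 members called lower. Over the genome, of 828 genes called for Hda1-18myc 14.6% were called higher in H4 acetylation and 5.07% lower, with 346 positive, 230 negative and a median of 0. Of the other 5174 genes 2.49% were higher and 14.0% lower, with a median of −0.76. The shares of members called higher were thus near those of the genome, 3 of 15 (20%) with Hda1-18myc and 0 of 40 without. The shares called lower, 0% with Hda1-18myc and 7.5% without, were below the 5.07 and 14.0% of the genome. These counts are a description and were not tested over the members, and coverage of a peak list cannot show a change in height where a gene is fully covered, as in *NHP2* and *RLP24*.

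**Figure D4:**
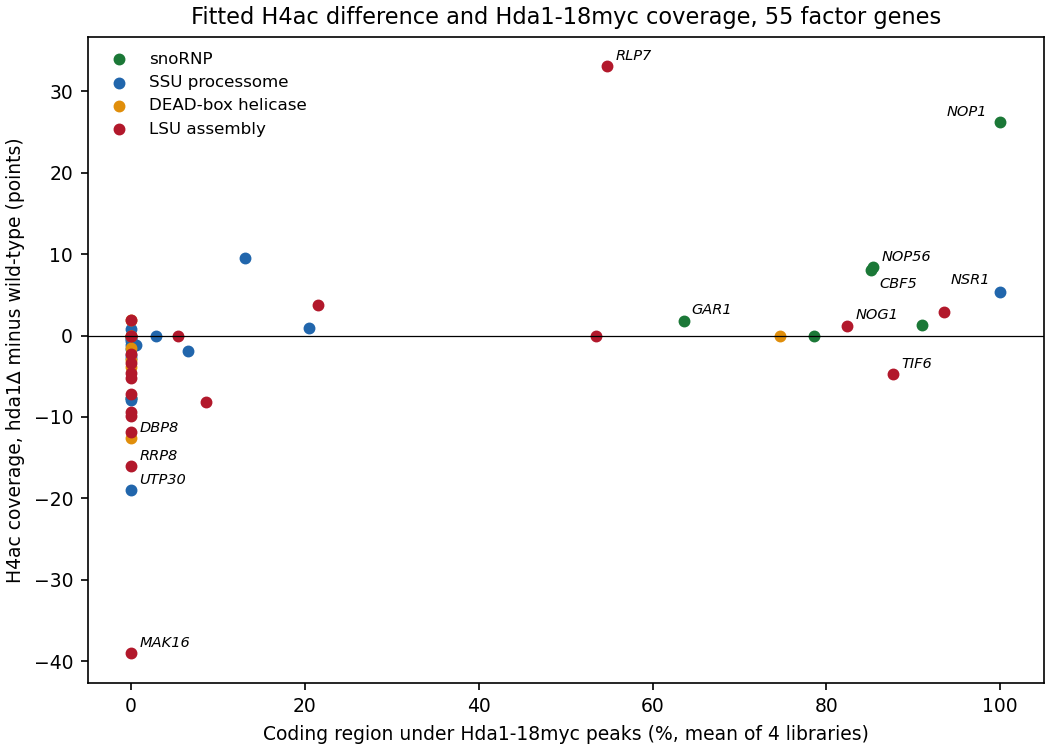
Fitted H4 acetylation difference, *hda1∆* minus wild-type, in percentage points (y axis) against the mean percent of the coding region under Hda1-18myc peaks (x axis), 1 point per member, colored by role, with constant members at 0. Members at the right edge, with *NOP1* at 100%, lie at or above 0 except *TIF6*, and the strongest negative differences, down to −39.1 points in *MAK16*, are in members without Hda1-18myc.

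Beside the 55, the 82 other ribosome biogenesis genes had 2 higher and 8 lower in H4 acetylation of 70 tested in *hda1∆* against wild-type, with a median of −3.92 points. The RNA polymerase I subunit genes had 1 higher and 0 lower of 5 tested. The ribosomal protein genes had 79 higher and 0 lower of 122, with a median of 30.0 points, so that the factor genes and the ribosomal protein genes stood apart in this measure, a difference that was not tested.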

How the data were processed

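ChIP-seq peaks were analysed for 30 of 54 samples. The other 24, input and total H3 libraries, were not analysed here. The authors aligned reads with Bowtie2 (2.2.5), filtered with Picard (2.6) and called peaks per library with MACS2 (2.1.0) at a q of 0.05, according to the study's methods and the submitters' processing notes. In the lists themselves, the largest q-value was 0.0474 in the spike-in set and 0.00987 in the set without. The sets may thus have been cut at unlike thresholds, and a peak found only with spike-in may reflect this. The deposited lists give each peak's position, a score, a fold enrichment as a ratio over control, and p and q as −log10 values. The deposited score entered no result. The deposited −log10 q-value set stricter thresholds and ordered peaks for the equal covered length, with ties broken by the deposited p and then fold. The deposited fold also ranked peaks within a library and is printed for some peaks. Without read counts or a spike-in scale, depth is unknown, no interval was computed and heights were not compared between libraries.

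The methods name R61-1-1 as the reference, the notes R64 and sacCer3. Gene positions came from the R64 table of RefSeq, in which all 55 symbols were found; only peak coordinates, counted from 1, are printed, and results were recomputed with genes moved by 200 bp. Roles and lists came from general knowledge of yeast. The members and lists were chosen with earlier results of these data known.

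Coverage of each coding region and of 400 bp upstream was computed in Python (3.11.15, pandas 2.3.3). Genes with constant coverage were left out. limma (3.58.1, R 4.3.3) with a mean-variance trend was fitted on all other genes, with the set as covariate, over 12 H4 acetylation, 6 H3 acetylation or 12 anti-myc libraries, and p-values were adjusted over all genes tested by Benjamini-Hochberg. With 2 libraries against 2, the smallest p of an exact permutation test is 0.33. The fit was tested on simulated data, where it called more unchanged genes than its threshold allows for H4 acetylation and for H3 acetylation, most for H3. Members named are those called, up to 10 per comparison and direction, or, with fewer than 3 called, the largest differences, said to be not called. Other members are named as extremes of a description, and some after their values were seen. Alternatives were the replicate block, each set alone, the arcsine scale, stricter or equal-length peaks, shifted genes, no filter, no trend, a margin of 10 points in every library without a fit, and leaving out each library.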

Additional observations from a re-analysis of the deposited data

Results flagged for a closer look

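The difference between the sets with and without spike-in was tested by an interaction of strain and set in limma, with p-values adjusted over all genes tested. It was called for 4 members in H4 acetylation and 1 in the anti-myc libraries, where 326 of 4537 genes (*hda1∆* against wild-type), 246 of 4537 (*tup1∆* against wild-type) and 226 of 1300 (each anti-myc comparison) were called.

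In *NOP53* the difference from wild-type with spike-in, minus that without, was −23.57 points in *hda1∆* (adjusted p = 0.000248) and the same −23.57 points in *tup1∆* (0.00023). In *RRP9* it was −15.27 points in both (adjusted p = 0.000525 and 0.000513). Both genes had an H4 acetylation peak in the 2 spike-in wild-type libraries and in no other library. In *SSF1* it was −18.76 points in *hda1∆* (adjusted p = 0.0341), from a peak in the same wild-type libraries.

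*BRX1*, a large-subunit assembly factor, differed by 16.27 points in *hda1∆* (adjusted p = 0.0106). It was covered completely in both *hda1∆* and both wild-type libraries with spike-in, and to 48.5 and 48.3% in *hda1∆* against 66.8 and 62.6% in wild-type without it.

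In *YTM1* the Hda1-18myc difference from Untag was larger with spike-in by 5.748 points (adjusted p = 0.00268), and that of Hda1(arb2∆)-18myc from Hda1-18myc differed by −5.748 points (0.00273). This is the edge of the *SNR8* peak, which was wider in the spike-in set. In H4 acetylation libraries, the largest listed q-value was 0.0111 to 0.0336 with spike-in and 0.00688 to 0.00982 without. Median peak length was 1229 to 1296 bp with spike-in and 879 to 1021 bp without. The part of threshold and peak length in these differences was not tested.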

How the results depend on the processing

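Of 420 alternatives over 22 counts of members, 317 stayed within 1.5 times the count reported. The numbers of the replicates do not pair the libraries (same-number correlations −0.03 to 0.08 apart from 0.61 between Hda1(arb2∆)-18myc and Untag with spike-in, 2 libraries per group). With the replicate block, members lower in *hda1∆* against *tup1∆* numbered 2 in H4 acetylation, those lower upstream in H3 acetylation 1 in *hda1∆* and 1 in *tup1∆* against wild-type, and those lower in coding regions in *tup1∆* 1; all other counts stayed within 1.5 times.

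For H4 acetylation in *hda1∆* against wild-type, 3 members were higher in coding regions; 0 were in the spike-in set alone and 0 by the 10-point margin, and leaving out 1 library gave 1 to 4. The 3 lower became 5 with stricter peaks and 1 by the margin (3 to 4 without 1 library). Upstream, the 1 lower became 0 at equal covered length and 2 with stricter peaks (0 to 2). In *tup1∆* against wild-type, the 1 lower became 0 at equal length, without the filter and by the margin, and 2 in the spike-in set alone (0 to 1). Upstream, the 1 lower became 0 within 200 bp of the start codon (0 to 1). In *hda1∆* against *tup1∆*, the 2 higher became 1 without spike-in, 0 with spike-in alone and 0 by the margin (1 to 3). The 5 lower became 3 on the arcsine scale, 1 at equal length, 2 with genes moved by 200 bp either way, 2 without the filter, 3 without spike-in, 0 with spike-in alone and 1 by the margin (1 to 4). *RRP8* turned to 1.866 points at equal length.

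For H3 acetylation in *hda1∆* against wild-type, leaving out 1 library gave 0 to 1 higher (0 reported) and 2 to 5 lower (4 reported, 2 with genes moved by 200 bp either way). Upstream it gave 0 to 4 higher (0 reported, 1 with genes moved 200 bp to higher ones) and 1 to 7 lower (2 reported, 5 at equal length, 1 with genes moved 200 bp to lower coordinates). In *tup1∆* against wild-type it gave 1 to 2 higher (1 reported, 0 at equal length and with genes moved 200 bp to lower coordinates) and 1 to 5 lower (2 reported, 5 at equal length, 0 with genes moved 200 bp to higher ones, and 1 each on the arcsine scale, without the filter, without the trend and by the margin). Upstream it gave 1 to 3 higher (1 reported, 0 at equal length and with genes moved 200 bp to higher ones) and 1 to 5 lower (2 reported, 5 at equal length, 1 with genes moved 200 bp to lower coordinates).

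In Hda1-18myc against Untag, the 15 higher became 7 in the spike-in set alone (15 to 15 without 1 library), and in Hda1(arb2∆)-18myc against Hda1-18myc the 15 lower became 5 there (13 to 15). For the anti-myc libraries the fit without the filter was not run, and equal covered length left no member to test. Leaving out both libraries that stood apart was chosen after seeing the data. The set alone and left-out libraries hold fewer samples; for the other settings the cause was not tested. Depth is unknown, so a missing peak cannot be told apart from a peak under the calling threshold.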
